A study of Mus musculus with 12 samples.

Results

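The transcripts described here are 8 complement components and receptors in elicited mouse peritoneal macrophages: C1qa, C1qb and C1qc, which encode the chains of C1q, the components C3, Cfb (factor B) and Cfp (properdin), and the receptors C3ar1 and C5ar1. They were chosen by name, and 8 of 8 were found among the 12339 genes of the count table. The macrophages came from wild-type (WT) mice and from a line labelled meKO, read from the series title as lacking protein kinase C epsilon (gene Prkce) in myeloid cells; neither the recombinase that was used nor the exons removed are given in the labels. Each mouse, chow controls of both genotypes included, received AAV8PCSK9 at 8 weeks of age, a virus that takes the LDL receptor away from hepatocytes. One set of each genotype then ate a high-fat Western diet (HFD) and the other stayed on chow. The peritoneal cells were elicited with sterile thioglycolate 4 weeks later and washed out. The groups WT chow and WT HFD had 3 libraries each, as did meKO chow and meKO HFD, 12 in all, whereas the labels describe 8 mice of each genotype. The labels do not tie a library to an animal, so p-values measure the spread between libraries. Replicate numbers follow the order of deposit and pair nothing.

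Complement is a cascade of plasma proteins that marks particles for uptake and calls in inflammatory cells. C1q opens the classical pathway by binding antibody or dying cells, factor B and properdin build and steady the convertase of the alternative pathway, and both routes cleave C3. The fragments C3a and C5a act on the G protein-coupled receptors C3aR and C5aR1 of myeloid cells. The liver makes most circulating C3 and factor B, whereas macrophages are a main source of C1q, and neutrophils and monocytes supply much of the properdin.

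Library depth ran from 25844958 to 37282772 counts. Levels are given as CPM, in which each library is brought to the same total, scaled by edgeR's TMM factors, which ran from 0.935 to 1.09. Prkce was at 2.01 to 4.44 CPM in the 6 WT libraries and at 0.950 to 1.78 CPM in the 6 meKO libraries, with no overlap, although its edgeR adjusted p was 0.0794 on chow and 0.989 on HFD. Of the fixed macrophage markers, 8 of 8 were present, and without Lyz2 they summed to 4571 to 5551 CPM. Lyz2 itself was at 30482 to 53835 CPM in WT and at 69.3 to 21309 CPM in meKO. The genotypes did not overlap on either diet, although its edgeR adjusted p was 0.506 on chow and 0.999 on HFD. The value of 69.3 was that of meKO chow replicate 2, against 20306 and 21309 in the others of its group. The cause was not tested. None of the 5 liver markers was among the genes analysed here. WT chow libraries 1 and 2 stood apart. Their deviations from the mean of the 12 libraries rose with transcript length (Spearman's rho across genes 0.64 and 0.68, against -0.46 to 0.13 in the other 10). The C1q transcripts are short, at 1040, 1088 and 1203 bases, and C3 is long, at 5136 bases, so their values are given below with and without these libraries and after a correction for length and GC content. In bulk RNA, fewer cells that express a gene and less RNA per cell cannot be told apart.

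Per kilobase of transcript, C1qc had the highest mean level of the 8, at 501 ± 130.0 CPM per kb (SD, n = 12 libraries), followed by Cfp at 411 ± 63.4, C1qa at 372 ± 77.2, C1qb at 364 ± 119 and C3ar1 at 339 ± 29.0. C5ar1 was lower, at 118 ± 13.6 CPM per kb. Cfb at 7.36 ± 2.67 and C3 at 5.70 ± 1.58 CPM per kb came last. The first 5 had overlapping ranges between neighbours in this order, as did Cfb and C3. C3ar1 stood above C5ar1, and C5ar1 above Cfb, in 12 of 12 libraries without overlap. The elicited macrophages thus held the C1q chain, properdin and anaphylatoxin receptor transcripts at levels above at least 96.4% of all genes by mean CPM, whereas C3 stood above 61.4% and Cfb above 52.2%.

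**Figure D1:**
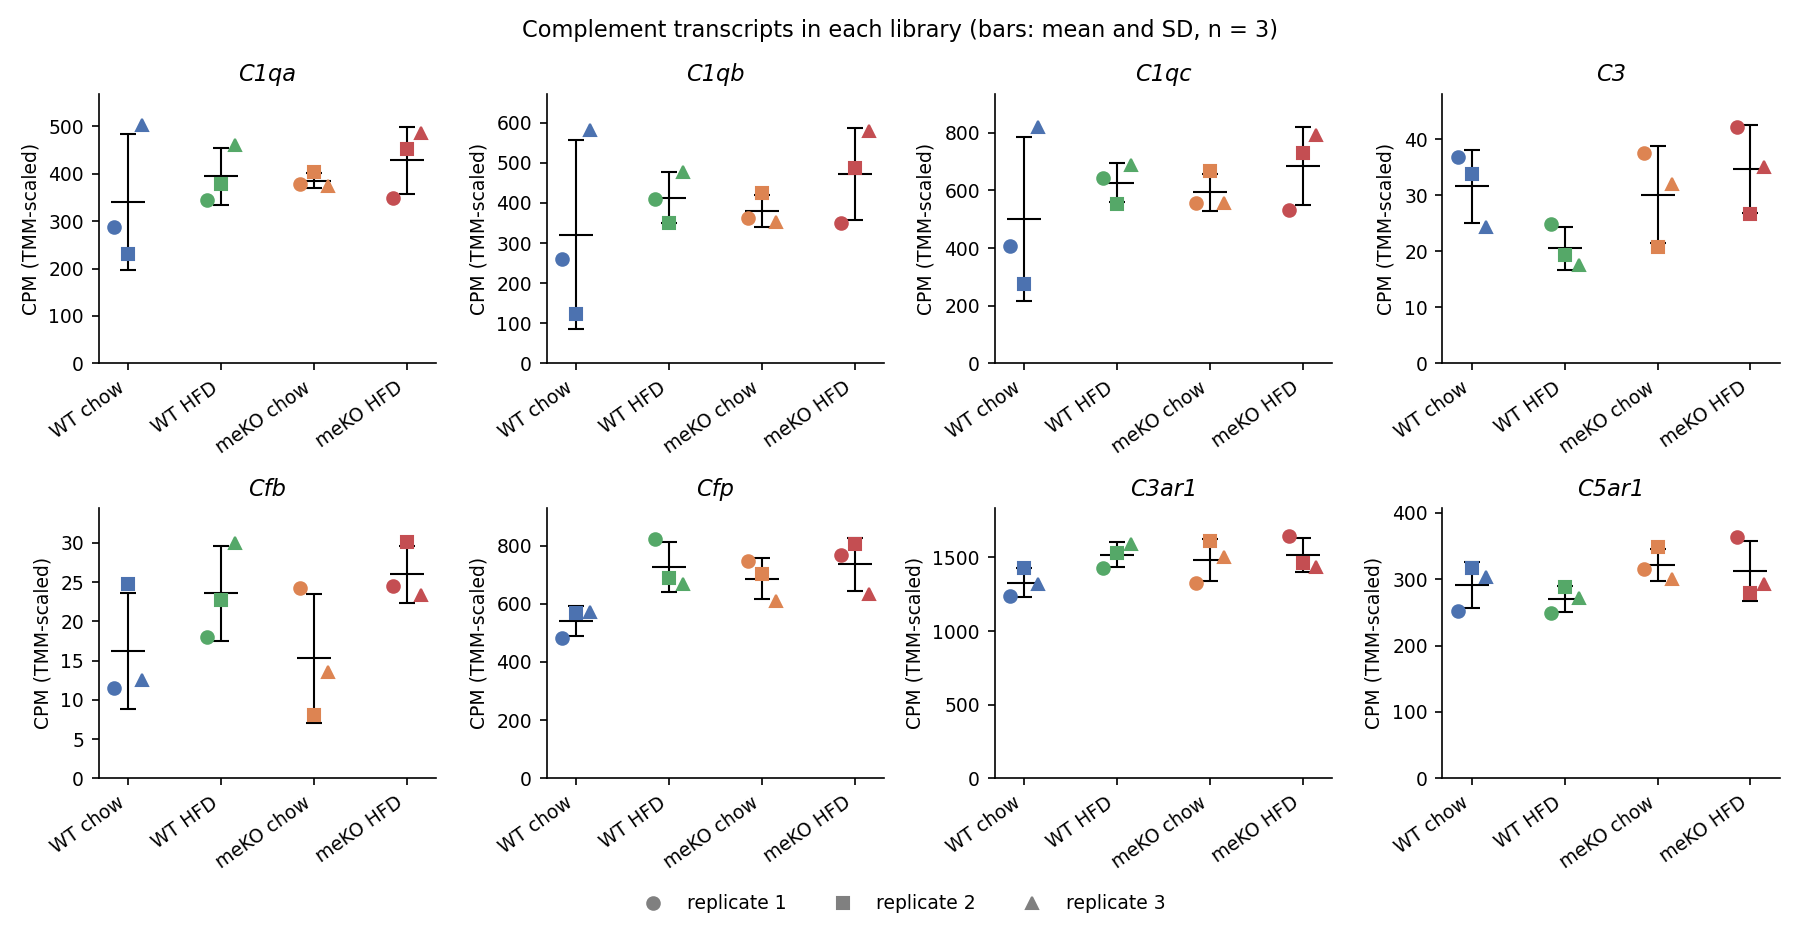
Level of each complement transcript in the 12 libraries, in TMM-scaled CPM on linear axes that start at 0, by genotype and diet; each symbol is a library, and bars give the mean and SD of 3 libraries. The WT chow libraries spread widely for C1qa, C1qb and C1qc (123 to 581 CPM for C1qb), and all 3 stood below the WT HFD libraries for Cfp.

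The C1q chains differed more between WT chow libraries than between groups. C1qb, the B chain, was at 260.1, 123 and 581 CPM in WT chow, 409, 351 and 478 in WT HFD, 362, 425 and 353 in meKO chow, with 350.3, 486 and 579 in meKO HFD. C1qa, the A chain, was at 287, 230.3 and 502 CPM in WT chow, 345, 378 and 460.5 in WT HFD, 378, 404 and 374 in meKO chow, with 348, 451 and 485 in meKO HFD. C1qc, the C chain, was at 409, 276 and 821 CPM in WT chow, 642, 554 and 687 in WT HFD, 556, 668 and 558 in meKO chow, with 533, 729 and 794 in meKO HFD. For each chain, WT chow held both the lowest library of the 12 (replicate 2) and the highest (replicate 3) and the groups overlapped in all 4 comparisons of genotype or diet. The highest WT chow library exceeded the lowest 4.72-fold for C1qb, 2.98-fold for C1qc and 2.18-fold for C1qa, spreads larger than those of 99.1%, 97.6% and 94.3% of all genes in that group. In the other groups the same ratio was at most 1.65. The resident peritoneal macrophage markers, all 8 present, summed to 139 to 336 CPM in WT chow, 197 to 290.2 in WT HFD, 115 to 258 in meKO chow and 122 to 285 in meKO HFD. The largest part of this sum was Vsig4, at 67.6 to 225 CPM, itself a complement receptor of the wider list described below. The others each stayed at or below 31.0 CPM. The part of these markers in the C1q levels was not tested.

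The C1q genes lie side by side on chromosome 4, within chr4:136880126-136898844 of GRCm38 (RefSeq), a span of 18.7 kb with 0 other genes of the table between them. Across the 12 libraries their log2 CPM moved together, with Pearson r of 0.96 for C1qa with C1qb, 0.96 for C1qa with C1qc and 0.99 for C1qb with C1qc. Without WT chow libraries 1 and 2 these were 0.91, 0.88 and 0.99. The 25 other pairs of members had r between -0.42 and 0.52, and between -0.56 and 0.43 without those libraries. All pairs share the libraries and their depth, and WT chow libraries 1 and 2 also share the length trend. The 2 chains with the highest correlation were C1qb and C1qc. They and, for contrast, Cfp and C3, whose correlations lay inside those ranges, are shown by their upstream bases. These are the bases just upstream of the most upstream annotated start (GENCODE M21 or RefSeq). The bases come from the RefSeq promoter table of GRCm38.p6, which held 6 of the 8 members, and run 5′ to 3′ on the gene's own strand, the minus strand in each case. Capitals mark matches, on either strand, to GAGGAA (a core bound by PU.1, the myeloid factor encoded by Spi1), TGCTGA (a motif of Maf factors) or TTGCNNAA (a C/EBP site); GAGGAA and TGCTGA can share 2 letters.
C1qb, chr4:136886201-136886350: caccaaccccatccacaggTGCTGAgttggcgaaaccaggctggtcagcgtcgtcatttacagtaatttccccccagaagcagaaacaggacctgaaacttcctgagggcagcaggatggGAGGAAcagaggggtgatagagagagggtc
C1qc, chr4:136893066-136893164: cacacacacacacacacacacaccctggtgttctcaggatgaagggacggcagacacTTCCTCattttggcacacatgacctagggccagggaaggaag
Cfp, chrX:20931556-20931705: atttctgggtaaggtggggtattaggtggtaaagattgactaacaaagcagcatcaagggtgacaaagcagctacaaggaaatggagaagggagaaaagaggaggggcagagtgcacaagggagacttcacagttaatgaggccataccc
C3, chr17:57228137-57228286: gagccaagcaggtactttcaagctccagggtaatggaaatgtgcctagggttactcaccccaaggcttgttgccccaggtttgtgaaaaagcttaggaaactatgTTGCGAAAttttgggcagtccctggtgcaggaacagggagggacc
GAGGAA lay 30 to 25 bases before the C1qb start, and its reverse complement TTCCTC lay 42 to 37 bases before the C1qc start. C1qb also held TGCTGA, 131 to 126 bases before its start. The stretch of C3 held TTGCGAAA, 45 to 38 bases before its start, and the stretch of Cfp held none of these letters. The full windows of the promoter set have 300 bases, 250 before and 50 after the set's own start. That start can lie downstream of the most upstream one used above, as for C1qc, whose printed stretch is shorter for this reason. In the full windows, GAGGAA was found for C1qb, C1qc and Cfp, TGCTGA for C1qb, C3, C3ar1 and C5ar1, and TTGCNNAA for C3. Over all 32851 promoter windows of that length, 28.3% held GAGGAA, 19.5% TGCTGA and 10.8% TTGCNNAA on either strand. These matches describe letters and were not tested for binding.

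Within a library, the proportions of the chains were close to constant except in WT chow replicate 2. The ratio of C1qb to C1qa counts was 0.534 there and 0.906 to 1.19 in the other 11 libraries. C1qc to C1qb was 2.25 there against 1.37 to 1.58, and C1qc to C1qa was 1.20 against 1.42 to 1.86. That library therefore had less C1qb than its C1qa and C1qc would give at the other libraries' proportions. Together the chains made up 629 CPM in WT chow replicate 2, the lowest sum, and 1905 CPM in WT chow replicate 3, the highest.

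**Figure D2:**
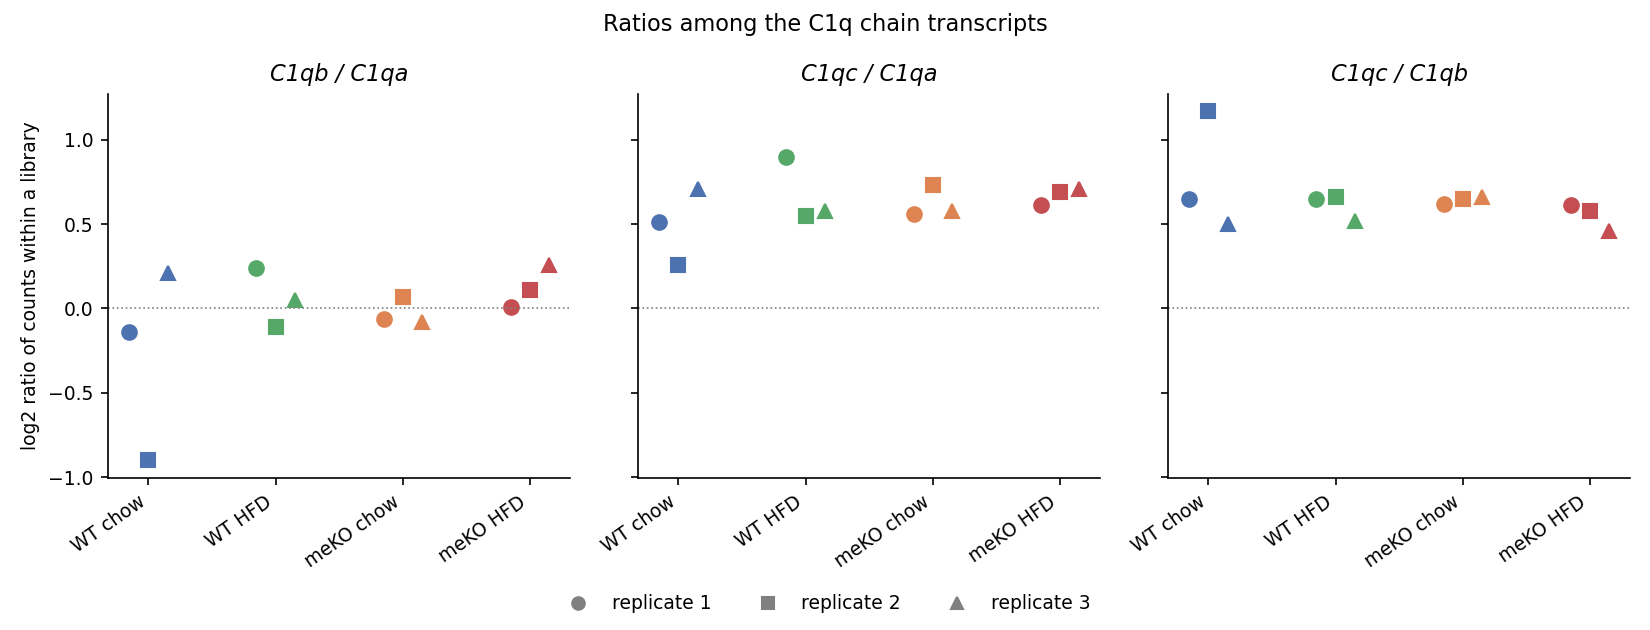
Ratios of the counts of C1qb to C1qa, C1qc to C1qa and C1qc to C1qb within each library, as log2 values, by group; each symbol is a library and the dotted line marks equal counts. WT chow replicate 2 stands apart in each panel, with linear ratios of 0.534, 1.20 and 2.25.

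On HFD against chow in WT, none of the chains passed edgeR's two-sided quasi-likelihood test, in which called means a Benjamini-Hochberg adjusted p under 0.05 over all 12339 genes. The log2 fold change was 0.21 ± 0.23 (SE) for C1qa, 0.36 ± 0.43 for C1qb and 0.32 ± 0.30 for C1qc, with edgeR adjusted p of 0.496, 0.561 and 0.441. Single WT chow libraries decided these values. Without WT chow replicate 3 they were 0.62, 1.11 and 0.88, with edgeR adjusted p of 0.00948, 0.0130 and 0.00466, in a fit that called 39.9% of all genes. Limma-voom with library quality weights gave WT chow replicate 3 the lowest weight, 0.222, and yielded 0.46, 0.94 and 0.74, with adjusted p of 0.0170, 0.0105 and 0.00484, while calling 52.0% of all genes. Without WT chow replicate 2, in contrast, the values were 0.00, -0.02 and 0.03, and without replicates 1 and 2 together, an alternative chosen after seeing the data, -0.35, -0.49 and -0.39. After the length and GC correction they were -0.02, 0.16 and 0.13. A diet difference in WT for C1q therefore took either sign according to which WT chow libraries were kept. In meKO, whose chow libraries lay close together, the log2 fold changes on HFD were 0.15 ± 0.23, 0.31 ± 0.43 and 0.21 ± 0.30, with edgeR adjusted p of 0.756, 0.741 and 0.751.

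Between genotypes on chow, the C1q log2 fold changes of meKO against WT were 0.18 ± 0.23 for C1qa, 0.24 ± 0.43 for C1qb and 0.24 ± 0.30 for C1qc, with edgeR adjusted p of 0.654, 0.768 and 0.651. Single WT chow libraries mattered here too. Without replicate 2 the values were -0.03, -0.14 and -0.05, and after the length and GC correction 0.04, 0.12 and 0.12. Without replicate 3 they were 0.59, 1.0 and 0.81, with edgeR adjusted p of 0.0254, 0.0377 and 0.0159, in a fit that called 20.6% of all genes, and with WT chow replicates 1 and 2 left out together -0.38, -0.61 and -0.47. The diet and genotype comparisons on chow share the WT chow libraries. On HFD, where these libraries do not enter the difference, the values were 0.12 ± 0.23, 0.19 ± 0.43 and 0.13 ± 0.30, each with an edgeR adjusted p of 0.999.

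Properdin, which stabilizes the alternative pathway convertase, was the single member that passed the test. Cfp was at 483, 569 and 573 CPM in WT chow and at 823, 688 and 668 in WT HFD, with no overlap. It rose 1.34-fold on HFD in WT (log2 fold change 0.42 ± 0.13 SE, edgeR adjusted p = 0.0367, higher in 3 of 3 libraries), a comparison in which 21.3% of all genes were called, 9.50% higher and 11.8% lower. The meKO libraries were at 748, 702 and 609.5 CPM on chow and at 767, 806 and 632 on HFD. Those groups overlapped, and the log2 fold change on HFD in meKO was 0.10 ± 0.13 (edgeR adjusted p = 0.721). All 3 meKO chow libraries stood above the WT chow libraries, with a log2 fold change of 0.34 ± 0.13 that missed the threshold (edgeR adjusted p = 0.181). On HFD the genotypes differed by 0.02 ± 0.13 on the log2 scale (edgeR adjusted p = 0.999). The diet differences of the genotypes did not pass as different from each other (interaction -0.32 ± 0.18 on the log2 scale, edgeR adjusted p = 0.797). The rise in WT lost its call when WT chow replicate 1 (edgeR adjusted p = 0.151), WT chow replicate 2 (0.0962), or any WT HFD library (0.0550 to 0.128) was left out, with library totals in place of TMM factors (0.0583) and after the length and GC correction (0.0952). Its log2 fold change stayed between 0.30 and 0.52 in these and the other alternatives, 23 in all, of which 15 kept the call. The neutrophil markers present were 6 of 10, none at 0 (Ly6g, Camp, Ngp and Elane were not analysed here). They summed to 54.0 to 80.8 CPM in WT chow and 70.9 to 74.1 in WT HFD. In meKO the sums were 79.2 to 98.4 on chow and 78.4 to 115 on HFD. Mmp8 had the highest range, at 32.1 to 69.7 CPM, and the others each stayed at or below 33.6. On HFD in WT, 3 of the 6 were called, 2 of them higher, beside 21.3% of all genes called. The part of these markers in Cfp was not tested.

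C3, the central component, had the largest genotype difference of the members on HFD. It was at 36.8, 33.8 and 24.3 CPM in WT chow, 24.9, 19.3 and 17.5 in WT HFD, 37.6, 20.7 and 32.1 in meKO chow, with 42.3, 26.6 and 35.1 in meKO HFD. On HFD all meKO libraries stood above all WT libraries, and the log2 fold change was 0.76 ± 0.23, a 1.69-fold difference, with an unadjusted edgeR p of 0.00582 and an adjusted p of 0.651. On chow the genotypes overlapped (log2 fold change -0.07 ± 0.23, edgeR adjusted p = 0.877). In WT the log2 fold change on HFD was -0.62 ± 0.23 (edgeR adjusted p = 0.0671), with WT chow replicate 3 inside the range of the WT HFD libraries. In meKO it was 0.20 ± 0.23 (edgeR adjusted p = 0.668). The interaction of genotype and diet was 0.83 ± 0.33 on the log2 scale, with an unadjusted edgeR p of 0.0239 and an adjusted p of 0.773.

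The WT diet difference of C3 crossed the threshold in 5 of 23 alternatives, among them DESeq2 (adjusted p = 0.0424), the fit without WT chow replicate 3 (edgeR adjusted p = 0.0257) and the fit without meKO chow replicate 2 (edgeR adjusted p = 0.0478). After the length and GC correction it was -0.24 (edgeR adjusted p = 0.377), and without WT chow replicates 1 and 2 it was also -0.24 (0.814). The genotype difference on HFD, which does not involve those libraries, stayed between 0.59 and 0.91 and passed in 0 of 23.

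Factor B, the protease of the alternative pathway convertase, was low and uneven. Cfb was at 11.5, 24.7 and 12.5 CPM in WT chow, 18.0, 22.7 and 30.0 in WT HFD, 24.2, 8.09 and 13.5 in meKO chow, with 24.5, 30.1 and 23.3 in meKO HFD. One chow library of each genotype reached the HFD range, so the diets overlapped in both. The log2 fold change on HFD was 0.54 ± 0.37 in WT and 0.76 ± 0.37 for meKO mice, with edgeR adjusted p of 0.301 and 0.338. Averaged over genotypes it was 0.65 ± 0.26 (edgeR adjusted p = 0.0796), and it passed in 4 of 22 alternatives. Between genotypes it was -0.09 ± 0.37 on chow and 0.14 ± 0.37 on HFD, with edgeR adjusted p of 0.910 and 0.999. The mesothelial and fibroblast markers, 10 of 10 present and none at 0, had higher sums on HFD than on chow in both genotypes. They summed to 52.3 to 92.8 CPM in WT chow, 94.1 to 140.2 in WT HFD, 52.1 to 97.0 in meKO chow and 113 to 141 in meKO HFD. On HFD in WT, 2 of the 10 were called, both higher, beside 21.3% of all genes called. The library with the highest sum also had the highest Cfb in WT chow, meKO chow and meKO HFD. In WT HFD it had the lowest Cfb. The full order of the libraries by this sum differed from that by Cfb in each group. The part of these markers in Cfb and C3 was not tested. Cfb lies next to C2 on chromosome 17, and how reads across that pair were counted is not given in the sources used here.

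Of the members, the anaphylatoxin receptors had the smallest relative range over the 12 libraries. C3ar1, the C3a receptor, was at 1235, 1429.9 and 1320.1 CPM in WT chow, 1431, 1532 and 1594 in WT HFD, 1329, 1612 and 1499 in meKO chow, with 1645, 1463 and 1437 in meKO HFD. WT HFD lay above WT chow in all libraries, though narrowly at the nearest pair, and the log2 fold change was 0.19 ± 0.11 (edgeR adjusted p = 0.203). After the length and GC correction it was 0.32 (edgeR adjusted p = 0.0438), in a fit that called 12.1% of all genes. In meKO the diet difference was 0.03 ± 0.11 on the log2 scale (edgeR adjusted p = 0.902). The genotypes differed by 0.16 ± 0.11 on chow and -0.00 ± 0.11 on HFD (edgeR adjusted p of 0.421 and 0.999).

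C5ar1, the C5a receptor, was at 252, 317 and 304 CPM in WT chow, 249, 288 and 272 in WT HFD, 316, 348 and 300.4 in meKO chow, with 364, 279.6 and 293 in meKO HFD. The groups overlapped in all 4 comparisons of genotype or diet. The log2 fold change on HFD was -0.11 ± 0.13 in WT and -0.04 ± 0.13 in meKO. The genotype difference was 0.14 ± 0.13 on chow and 0.21 ± 0.13 on HFD, with edgeR adjusted p of 0.523 and 0.999.

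**Figure D3:**
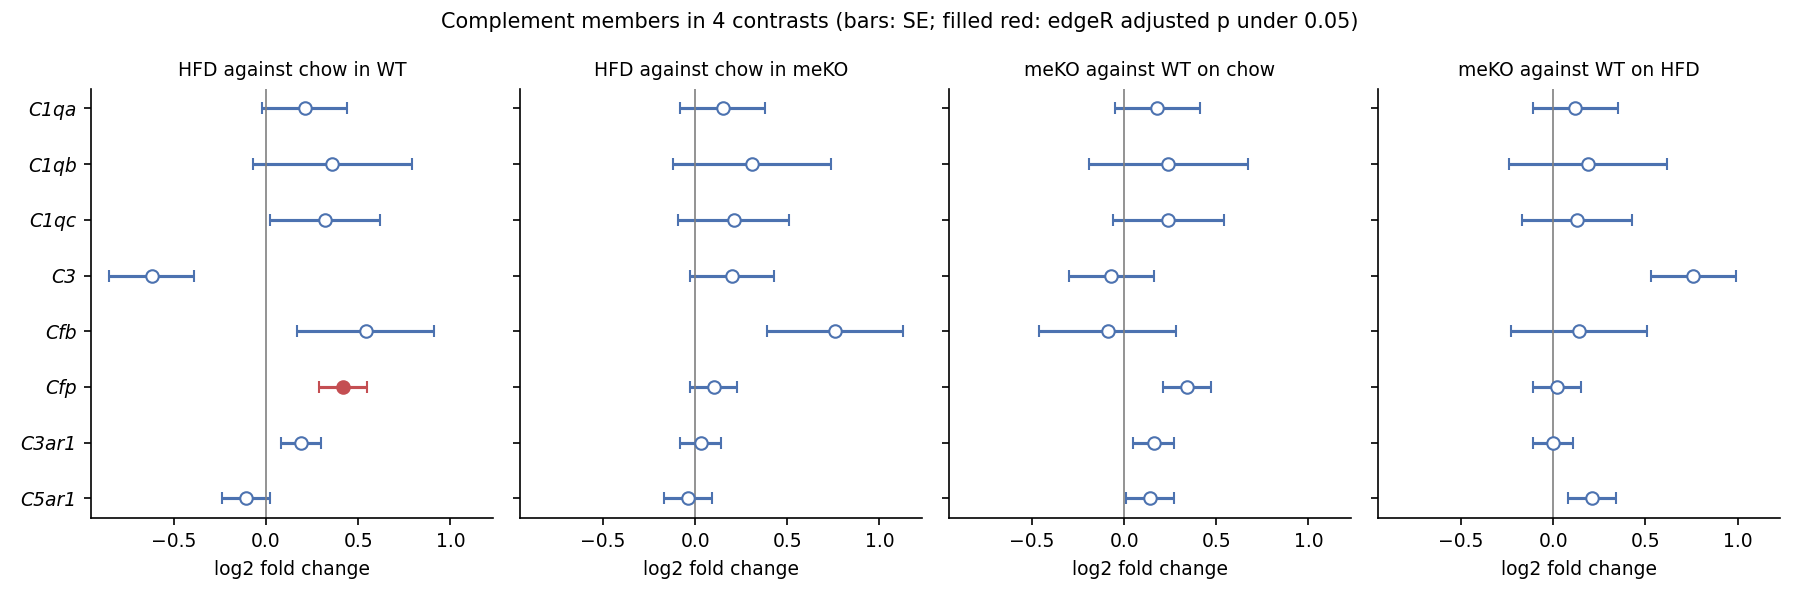
Log2 fold change of the 8 complement transcripts for diet within each genotype and for genotype within each diet; bars give the SE of the edgeR fit over 12 libraries, and filled red marks an adjusted p under 0.05 over all genes. Cfp on HFD in WT (0.42) is filled, and C3 in meKO against WT on HFD (0.76) is the farthest open point from 0 in that panel.

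The members' counts were near the shares over all genes. For HFD against chow in WT, 1 of 8 was called, beside 21.3% of all genes, and 2 of 8 had groups that did not overlap, beside 39.3%. Their median log2 fold change was 0.27, against -0.03 over all genes, and 6 of 8 were above 0, beside 5795 of all 12339 genes. In meKO, 0 of 8 were called by edgeR, DESeq2 or limma-voom, 0 had an unadjusted edgeR p under 0.05, and 0 had groups that did not overlap, beside 0.105% of all genes called and 19.7% not overlapping. Averaged over genotypes, Cfp was the 1 member called (log2 fold change 0.26 ± 0.09, edgeR adjusted p = 0.0457), beside 30.2% of all genes, 14.9% higher and 15.3% lower; 10 of 22 alternatives kept that call.

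For meKO against WT, edgeR, DESeq2 and limma-voom each called 0 of 8 members on either diet. On chow 1 member (Cfp) had an unadjusted edgeR p under 0.05 and groups that did not overlap, beside 17.1% of all genes not overlapping and 0.0810% called. On HFD 1 member (C3) did, beside 10.3% not overlapping and 0.0810% called. With library quality weights, 4 members (the C1q chains and Cfp) were called on chow and 0 on HFD, in a fit that called 32.8% of all genes on chow. Averaged over diets, 0 of 8 were called and 0 had an unadjusted edgeR p under 0.05, beside 0.170% of all genes called. All 8 estimates were above 0, from 0.03 for Cfb to 0.34 for C3, beside 6395 of all 12339 genes above 0. The C1q chains moved together, so these estimates are not independent. The interaction gave 0 calls in 8, with 1 unadjusted edgeR p under 0.05 (C3), beside 0.0162% of all genes; DESeq2 and limma-voom also gave 0.

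**Figure D4:**
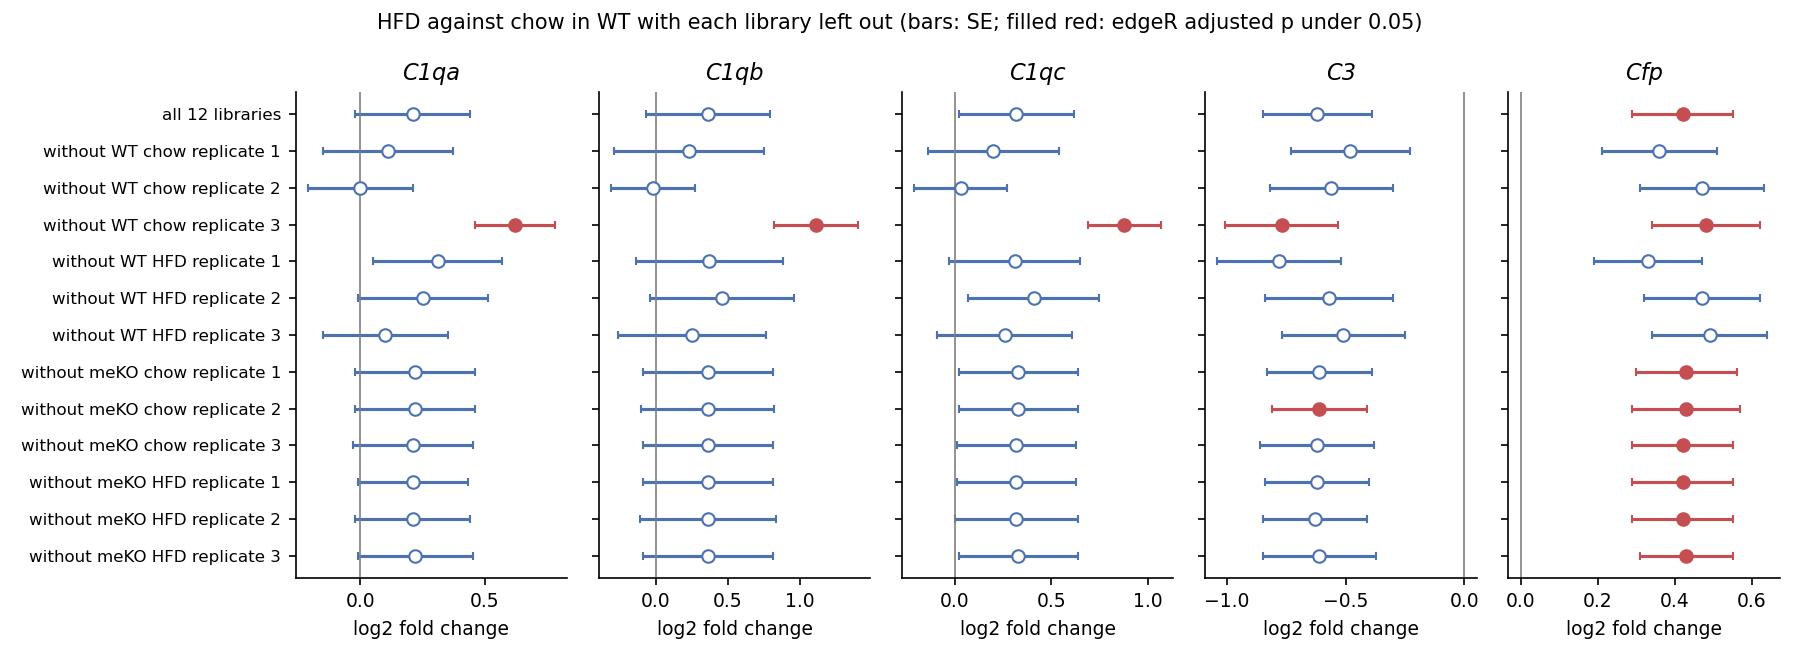
Log2 fold change on HFD against chow in WT for the C1q chains, C3 and Cfp with all libraries and with each library left out; bars give the SE and filled red marks an edgeR adjusted p under 0.05. Leaving out WT chow replicate 3 moves C1qb from 0.36 to 1.11, and leaving out replicate 2 moves it to -0.02.

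Of a wider list of 49 other complement genes, 26 were in the table. By pathway these were 6 of 7 classical, 2 of 9 lectin, 0 of 1 alternative and 1 of 7 terminal genes. The rest were 12 of 13 receptors and 5 of 12 regulators. For HFD against chow in WT, 5 of the 26 were called, 1 higher and 4 lower, beside 9.50% of all genes higher and 11.8% lower; their median log2 fold change was -0.08. Cd93, a surface lectin of myeloid cells once named as a C1q receptor, was at 511, 570.3 and 380.3 CPM in WT chow and at 269.7, 286 and 273 in WT HFD. It fell by 0.82 ± 0.13 on the log2 scale (edgeR adjusted p = 0.00647). That call held in 22 of 23 alternatives, the exception being the fit without WT chow replicates 1 and 2 (-0.46). After the length and GC correction the log2 fold change was smaller, at -0.47 (edgeR adjusted p = 0.0108). In meKO the Cd93 difference was -0.22 ± 0.13 (edgeR adjusted p = 0.409).

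Itgax, the alpha chain of complement receptor 4, fell from 101, 109 and 71.4 CPM to 60.2, 57.4 and 46.8 on HFD in WT (log2 fold change -0.78 ± 0.23, edgeR adjusted p = 0.0312). The dendritic cell markers, 6 of 6 present and none of them Itgax, summed to 30.9 to 50.5 CPM in WT chow and 17.9 to 27.3 in WT HFD. Cr2, a complement receptor of B cells, fell by 2.04 ± 0.55 on the log2 scale (edgeR adjusted p = 0.0244), at 3 to 38 counts per library. The B cell markers present, 5 of 6, summed to 106 to 163 CPM in WT chow and 51.9 to 87.2 in WT HFD. The part of these markers in Itgax and Cr2 was not tested. C4a, of the classical pathway and nearly identical to C4b, fell by 1.13 ± 0.35 (edgeR adjusted p = 0.0379), a value made uncertain by reads that the pair may share. In WT chow C4b had a mean of 103 CPM, against 7.22 for C4a. Its log2 fold change on HFD in WT was -1.02 ± 0.46, with no overlap, and it was not called (edgeR adjusted p = 0.126). The WT calls of Itgax, C4a and Cr2 held in 16 of 23, 15 of 23 and 15 of 22 alternatives. Each was lost without WT chow replicate 1 or 2, or any 1 WT HFD library (edgeR adjusted p of 0.0569 to 0.164), and after the length and GC correction (0.118, 0.193 and 0.0530).

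Clu, or clusterin, an inhibitor of the terminal complex, was the 1 gene of the 26 called higher on HFD in WT. It went from 4.16, 4.21 and 3.07 CPM to 8.51, 5.03 and 5.96 (log2 fold change 0.77 ± 0.24, edgeR adjusted p = 0.0372). In meKO the Clu difference was 1.17 ± 0.23, which missed the threshold (edgeR adjusted p = 0.0696). There edgeR called 0 of 26, beside 0.105% of all genes, DESeq2 called 1 (Clu) and limma-voom called 0. Unadjusted edgeR p under 0.05 numbered 2 of the 26, beside 1962 of all 12339 genes. Averaged over genotypes, 7 of the 26 were called, 3 higher and 4 lower, beside 14.9% and 15.3% of all genes. The 6 with the smallest p were Clu (log2 fold change 0.97), Cd93 (-0.52), Cr2 (-1.46), C4a (-0.84), Itgam (-0.45) and Cr1l (0.23), with edgeR adjusted p from 0.00418 to 0.0313. Itgam is the alpha chain of complement receptor 3, and Cr1l encodes Crry, a membrane regulator of complement on mouse cells. Clu passed in 22 of 22 alternatives for that average, but its call in WT held in 14 of 23 and was lost without any 1 WT chow library or WT HFD replicate 1 or 3 (edgeR adjusted p of 0.0603 to 0.143). After the length and GC correction, 1 of the 26 was called in WT, beside 12.1% of all genes.

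**Figure D5:**
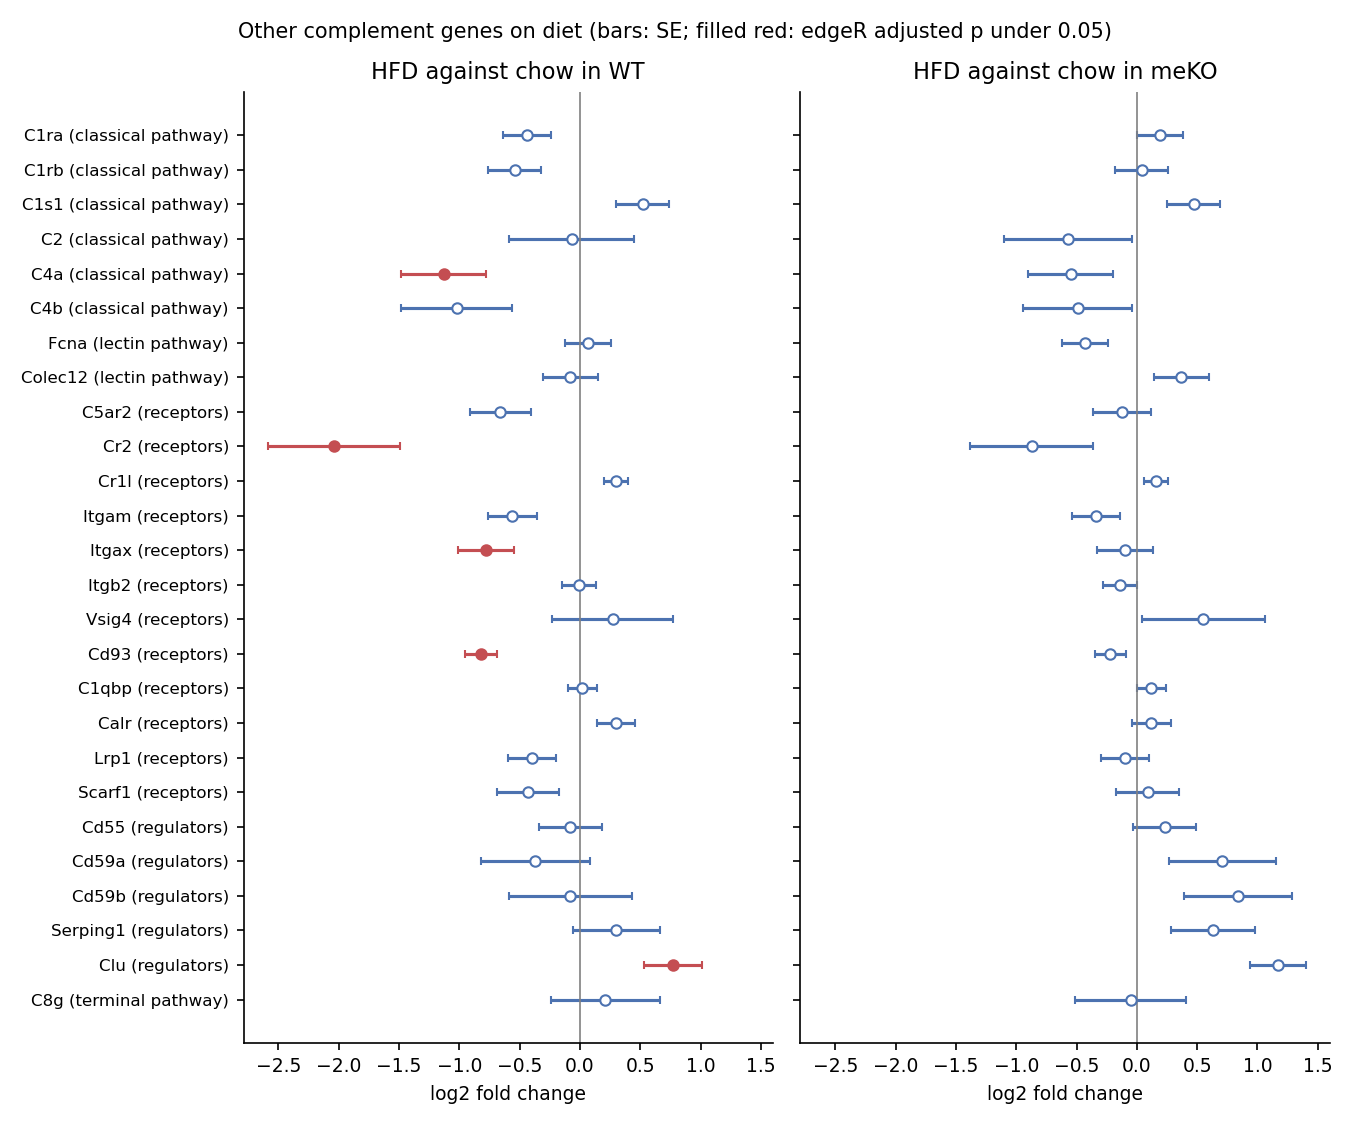
Log2 fold change on HFD against chow in WT and in meKO for the 26 other complement genes, with their role; bars give the SE of the edgeR fit and filled red marks an adjusted p under 0.05. In WT 5 genes are filled, Clu to the right of 0 and Cd93, Cr2, Itgax and C4a to the left, and in meKO none is.

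Between genotypes 0 of the 26 were called by edgeR on either diet, beside 0.0810% of all genes on each. Unadjusted edgeR p under 0.05 numbered 6 of the 26 on chow and 4 on HFD, beside 2447 and 563 of all 12339 genes. DESeq2 called 1 on chow (Cd93) and 1 on HFD (Clu), and limma-voom called 0 on both. Transcription factors known from other work to act at complement genes were all measured, 9 of 9. On HFD in WT, 4 of them were called, 2 higher and 2 lower, beside 9.50% of all genes higher and 11.8% lower. Spi1, which encodes PU.1, rose by 0.36 ± 0.11 and Cebpb by 0.75 ± 0.23 on the log2 scale, whereas Irf8 fell by 0.63 ± 0.15 and Nfkb1 fell by 0.51 ± 0.14 (edgeR adjusted p of 0.0318, 0.0346, 0.0203 and 0.0278). Those calls held in 16, 16, 18 and 16 of 23 alternatives, in the same order. In meKO the log2 fold changes on HFD were 0.15, 0.22, -0.43 and 0.00, with edgeR adjusted p of 0.464, 0.637, 0.252 and 0.990. These 4 factors are given beside the promoter letters above without a test of any link.

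For each member, the genes whose log2 CPM was most like it over the 12 libraries were taken from 11492 genes that averaged 1 CPM or more. C1qa was closest to Rbks (r = 0.94) and Gm21596 (0.93), C1qb to Hmgn2 (0.94) and Gm16062 (0.93), and C1qc to Mtfr1l (0.94) and Nit2 (0.94). Without WT chow libraries 1 and 2 these fell to between 0.74 and 0.85. Cfp was closest to Suds3 (0.96) and Fkbp8 (0.94), and without those libraries to the same extent (0.98 and 0.95). Cfb was closest to Saa3 (0.90), an acute-phase gene, and Htra3 (0.89), C3 to Klf11 (0.92) and Trim3 (0.88), C3ar1 to Nmt1 (0.91) and Stx11 (0.87), and C5ar1 to Tfdp1 (0.84) and Prtn3 (0.81). These are the highest of many correlations over libraries that share depth and length trends, and are descriptions.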

How the data were processed

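RNA from thioglycolate-elicited macrophages was extracted with Trizol and made into TruSeq libraries, per the labels. The values are whole-number gene counts, as deposited by the authors, for the 12 libraries. Per the submitters' processing notes, the genome was mm10 (GRCm38) and DESeq2 was used; the aligner, the counting tool and the strand setting are not given in the sources used here. Genes without a symbol, 186 of 12339, held 0.440% of counts.

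The whole table was fitted with edgeR 4.0.16 (R 4.3.3; TMM factors, filterByExpr, which kept all 12339 genes, robust quasi-likelihood, 4 group means, two-sided, Benjamini-Hochberg over all genes, threshold 0.05). DESeq2 1.42.0 and limma 3.58.1, other scalings and filters, a length and GC correction (93.5% of genes had values), and each library left out served as alternatives. The fit was tested on simulated data. Library depth, 25844958 to 37282772 counts, sets the counting precision; Prkce had 25 to 151 counts. The 12 replicate pairs differed beyond sampling noise (chi-square per degree of freedom at least 16.9; r of log2 CPM 0.977 to 0.990). Lengths and positions came from GENCODE M21 and RefSeq.

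The members and lists were chosen with earlier results of these data known; 1 gene of the wider list is not reported here and is left out of its counts. All members are named in each comparison. Of the wider list, the called genes or the 6 with the smallest p are named. C4b is added beside C4a, and the regulators under other observations. Of the transcription factors, those called are named, and, per member, the 2 most correlated genes.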

Additional observations from a re-analysis of the deposited data

How the results depend on the processing

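With 3 libraries a group, the choices that moved results most were the WT chow libraries kept and their weights. In WT on HFD against chow, members called went from 1 to 0 with library totals, 2 with DESeq2, 5 with library quality weights, 2 with only the groups compared and 0 without WT chow libraries 1 and 2 (chosen after seeing the data); the wider list went from 5 to 8 with DESeq2, 13 with quality weights, 1 with the length and GC correction and 0 without those libraries. For diet averaged over genotypes, members called went from 1 to 0 with library totals, 2 with limma-voom, 5 with quality weights, 0 with the length and GC correction and 0 without those libraries; the wider list went from 7 to 12 with quality weights and 1 without those libraries. For meKO against WT, quality weights raised the members called from 0 to 4 on chow and 3 averaged over diets, and the wider list from 0 to 6 on chow, 1 on HFD and 9 averaged; DESeq2 gave 1, 1 and 2 for the wider list. In meKO on diet the wider list had 1 with DESeq2 and 1 with quality weights, and the interaction 1 with quality weights. Leaving out each library in turn, members called ranged from 0 to 5 in WT on diet, 0 to 4 for diet averaged, 0 to 3 for genotype on chow and 0 to 1 for genotype averaged; the wider list ranged from 1 to 9, 3 to 10, 0 to 4 and 0 to 4 in the same order, and 0 to 1 for diet in meKO and for the interaction. The share of all genes called moved too. For HFD against chow in WT it was 21.3% in the main fit, 12.1% after the length and GC correction and 52.0% with quality weights. It was 39.9% when WT chow replicate 3 was left out. For meKO against WT on chow the main fit called 0.0810%, quality weights 32.8% and the fit lacking that replicate 20.6%. Shares for the other alternatives are not given. Whether the listed counts moved beyond these shares was not tested. The cause of the shifts in these counts was not tested. No estimate that was called with all libraries and named in the text changed sign under the alternatives run. No paired analysis was possible because the labels carry no replicate numbers that groups share. Low counts limit Cr2 and Cd59b.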

Other observations

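None of the regulators that protect host cells from complement passed the edgeR test between genotypes on HFD; their levels are given as values, picked after they were seen. Of the 5 genes listed as regulators, 4 had groups that did not overlap on HFD, beside 10.3% of all genes, and all 4 were higher in meKO. Clu was at 8.51, 5.03 and 5.96 CPM in WT HFD and at 9.70, 13.0 and 15.2 in meKO HFD (log2 fold change 0.96 ± 0.23, edgeR adjusted p = 0.330). Cd59a, an anchored inhibitor of the membrane attack complex, was at 8.22, 6.78 and 4.09 CPM in WT HFD and at 12.8, 19.0 and 10.2 in meKO HFD (1.14 ± 0.45, edgeR adjusted p = 0.999). Its near copy Cd59b, whose reads may be shared with it, stood at 5 to 41 counts per library (1.28 ± 0.47, edgeR adjusted p = 0.940). Serping1, the C1 inhibitor, had a log2 fold change of 0.66 ± 0.35 (edgeR adjusted p = 0.999). Cd55, the fifth, overlapped (0.20 ± 0.26), as did Cr1l, which is listed with the receptors (-0.00 ± 0.10), both with an edgeR adjusted p of 0.999. On chow 1 of the 5 did not overlap, beside 17.1% of all genes. The mesothelial and fibroblast markers summed to 94.1 to 140.2 CPM in WT HFD and 113 to 141 in meKO HFD, and their part in these regulators was not tested.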
